A study of Mus musculus with 4 samples.

Results

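The genes described here build the cell-to-cell junctions of brain endothelium: Cldn5, Ocln, Esam, F11r, Jam2 and Lsr, whose products sit in or beside the tight junction membrane, the scaffolds Tjp1 and Cgn, and the adherens junction cadherin Cdh5. They were taken by symbol, with no measured value in the rule, and are 9 of the 55487 genes in the files. Their transcripts were counted by droplet sequencing of single mouse brain cells enriched for endothelium by FACS or marker-based purification, in 4 libraries with 1 library in each group. The groups were WT Cre and EC-K4KO, each from young and from old mice, and the labels give age as young or old and state that both sexes were used. WT Cre mice are littermates that carry the endothelial Cre driver (CdH5-Cre, in the study's methods a tamoxifen-inducible CDH5-CreERT2) without loss of Klf4. EC-K4KO mice carry the same driver with floxed Klf4 alleles, on a C57BL/6J background, and tamoxifen was given to both genotypes, so every library comes from animals with Cre in their endothelium, driven from the promoter of Cdh5, which is itself among the 9 genes. The number of mice behind a library is not given in the sources used here. Lists of 4 values below are in library order: young WT Cre, young EC-K4KO, then the same genotypes from old mice.

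A tight junction is a belt of strands that closes the gap between neighbouring cells. Claudin-5 and occludin span the membrane in these strands, and the immunoglobulin-type proteins Esam, F11r (JAM-A) and Jam2 (JAM-B) meet their partners on the next cell at the same border. Lsr, also called angulin-1, is found at contacts where more than a pair of cells meet. Tjp1 (ZO-1) and cingulin (Cgn) tie the strands to the actin cortex from inside, and VE-cadherin, the product of Cdh5, holds the adherens junction of endothelium. In the brain these proteins close the route between cells across the blood-brain barrier.

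Klf4, the gene that EC-K4KO mice were made to lack in endothelium, was examined first as a check of the labels. Levels are given as CPM, counts per 1000000: the unique molecular identifiers (UMIs, captured RNA molecules) of a gene per 1000000 UMIs of the summed cells. In endothelial-like cells Klf4 stood at 1670 CPM in young and 2111 CPM in old WT Cre. The libraries labelled EC-K4KO had 3253 CPM at the young age and 3312 CPM at the old age, above both WT Cre libraries. Counts per gene do not show which exons were read, so transcripts without the deleted part cannot be told apart from whole ones. Because the counts go against the labels, the groups are named below as labelled and no direction is drawn from loss of Klf4.

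Endothelial-like cells were those with at least 50% of 8 endothelial marker genes detected and no second lineage passing its own markers, and none of the 9 junction genes was among the markers of any class or segment. There were 2780, 3300, 2170 and 1912 such cells in library order, with 25433127, 41201662, 14814468 and 10673443 UMIs. Their median depths were 6362, 9712, 4705 and 3773 UMIs. Pecam1, an endothelial gene outside the markers, ran from 686 to 691 CPM. After the scaling used in the tests below it was higher in both old libraries. In library order Kdr was at 588, 511, 455 and 382 CPM and Tie1 at 232, 247, 161 and 156 CPM, both also outside the markers. Emcn was lower in both old libraries too, while Cyyr1 and Rasip1 overlapped between ages. The 8 markers summed to 12818, 12415, 11358 and 11361 CPM. Between 6 and 11 cell barcodes were shared by any pair of libraries. Intervals below are 95% intervals for counting error only, and the spread between mice is not measured.

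The genes lie on 7 chromosomes of GRCm38 (GENCODE M21). Cldn5 is at chr16:18776847-18778262, Esam at chr9:37528078-37538319, F11r at chr1:171437535-171464603, Jam2 at chr16:84774123-84825928 and Cdh5 at chr8:104101625-104144511, all on the plus strand. Ocln is at chr13:100496507-100552718, Lsr at chr7:30957770-30973464, Tjp1 at chr7:65296165-65527781 and Cgn at chr3:94760069-94786492, all on the minus strand. Predicted genes overlap Jam2 (Gm25908), Lsr (Gm17077 and Gm4673), Tjp1 (Gm44792, Gm44794 and Gm44795) and Cdh5 (Gm29682), and how the counting treated such overlaps is not given in the sources used here.

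In endothelial-like cells 8 of the 9 genes were well detected and were tested. Cldn5 and Tjp1 fell in the old libraries, and Ocln, Jam2, Esam, F11r, Lsr and Cdh5 did not pass the test. Cldn5 was at 6688, 6328, 4638 and 4331 CPM in library order. Both old libraries lay below both young ones. Tjp1 was at 479, 495, 366 and 347 CPM, again without overlap between ages. With age and genotype label in one model and trimmed-mean (TMM) scaling, the log2 fold change with age was -0.38 ± 0.10 (SE) for Cldn5 (edgeR quasi-likelihood test, adjusted p = 0.0369) and -0.30 ± 0.08 for Tjp1 (adjusted p = 0.0449). These 2 of 8 genes compare with 18.0% of all 14815 genes tested, of which 6.88% were lower and 11.1% higher.

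Ocln was at 322, 322, 243 and 257 CPM, a fitted log2 fold change of -0.22 (adjusted p = 0.0861). Jam2 was at 308, 323, 233 and 269 CPM (-0.18, adjusted p = 0.142). Esam was at 751, 764, 623 and 673 CPM (-0.07, adjusted p = 0.566). F11r had 190, 175, 158 and 146 CPM (-0.11, adjusted p = 0.313), and Lsr had 332, 334, 290 and 296 CPM (-0.03, adjusted p = 0.792). On the plain CPM scale both old libraries were below both young ones for these 5 genes. The median of all genes itself shifts on that scale, by -0.18 in WT Cre and -0.15 in EC-K4KO. After the TMM scaling used in the tests the separation held for Ocln, Jam2 and F11r, while Esam (702, 736, 654 and 712) and Lsr (311, 322, 305 and 313 TMM-scaled CPM) overlapped between ages. The share of all genes that part by age in this way, as Cldn5 and Tjp1 also did, was not counted. Cdh5 had a fitted value of -0.02 ± 0.10 (adjusted p = 0.912), and its levels are given with the genotype labels below. Cgn had 1, 6, 6 and 3 UMIs, too few to test.

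The age model has 1 residual degree of freedom, and its calls changed with the setting. No gene of the set passed in a model of age alone, as 6.45% of all genes did. None passed in capillary-like cells alone (6.49% of all genes), where Cldn5 was -0.20 and Tjp1 -0.17. On library totals 6 of the 8 passed, beside 32.2% of all genes (23.7% lower and 8.5% higher). The median of all genes itself shifts on that scale, by -0.18 in WT Cre and -0.15 in EC-K4KO. Beside the age difference, the capillary-like share of endothelial-like cells was 49.7%, 43.6%, 28.0% and 26.7% in library order. A list of 7 immediate early and dissociation genes (Fos, Jun, Junb, Egr1, Atf3, Dusp1 and Hspa1a, none at 0) summed to 9054 and 11823 CPM in the young libraries and to 13681 and 12753 CPM in the old ones, and 3 of them (Junb, Atf3 and Hspa1a) rose with age. Of 5 further endothelial genes outside the markers, Tie1 fell with age (-0.44, adjusted p = 0.00869) and Kdr, Cyyr1, Emcn and Rasip1 did not pass. The 5 smooth muscle markers summed to 37.2 and 73.5 CPM in the young libraries and to 13.8 and 15.3 CPM in the old ones, with 1 of the 5 at 0 in old WT Cre. The 6 pericyte markers (17.2, 12.4, 4.79 and 5.72 CPM) were also lower in the old libraries, while the 5 choroid plexus epithelial markers (74.8, 17.2, 278 and 121 CPM) and the 6 border macrophage markers (10.7, 13.7, 27.1 and 23.4 CPM, with 2 of 6 at 0 in each old library) were higher there. The 5 erythroid markers (700, 1252, 1545 and 1415 CPM, with 1 to 3 of 5 at 0) were higher in the old libraries as well, and the 5 neuron markers were at 10.1, 17.0, 5.33 and 4.22 CPM. The 5 neutrophil markers were at 6.72 to 9.99 CPM in 3 libraries and at 147 CPM in old EC-K4KO. The part of cell makeup, of these marker lists and of depth in the age difference was not tested.

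Library against library, the age difference was read separately in each genotype, as a description of 1 library against 1. In WT Cre the log2 ratio of old over young was -0.36 for Cldn5 (interval -0.37 to -0.35), -0.24 for Ocln, -0.23 for Jam2 and -0.22 for Tjp1. In EC-K4KO it was -0.41 for Cldn5 (interval -0.43 to -0.40), -0.38 for Tjp1, -0.19 for Ocln and -0.13 for Jam2. Cdh5 was the 1 gene of the 8 whose ratios had opposite signs, at 0.16 in WT Cre and -0.20 in EC-K4KO after TMM scaling. On plain CPM it was level between the WT Cre libraries, at 550 and 548 CPM. The median of the 8 genes was -0.16 in both genotypes, and that of the 8428 genes at 10 CPM or more was -0.02 in both. No gene of the set was lower by a log2 of 0.5 or more, as were 4.05% of all genes in WT Cre and 4.51% in EC-K4KO, and none was higher by as much (8.07% and 7.9%). These ratios share libraries with those of genotype below and are not independent of them.

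**Figure D1:**
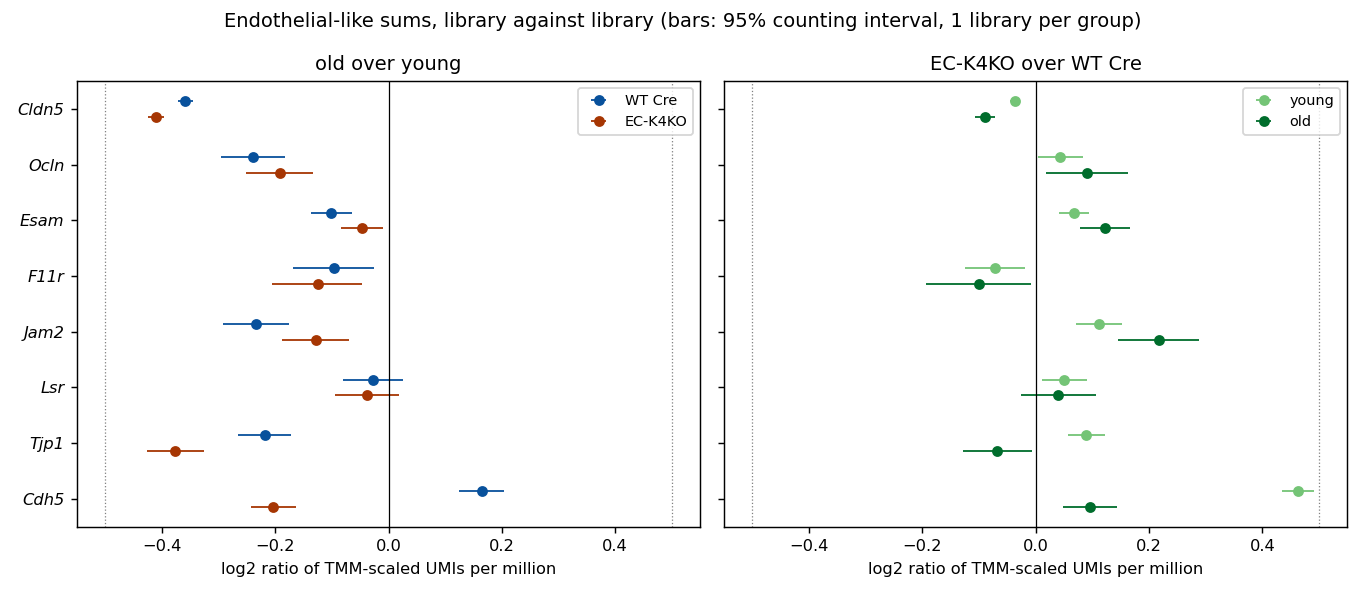
Log2 ratio of TMM-scaled CPM in endothelial-like cells for the 8 detected junction genes, old over young on the left (WT Cre and EC-K4KO) and EC-K4KO over WT Cre on the right (young and old). Points are 1 library over 1 library, bars are 95% counting intervals and dotted lines mark a log2 ratio of 0.5 in each direction. Cldn5 lies at -0.36 and -0.41 with age, and Cdh5 in the young pair, at 0.46, is the point nearest to a dotted line.

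Between genotype labels no junction gene passed the edgeR test, against 1.46% of all genes (0.823% higher and 0.641% lower). Cdh5 was the 1 gene of the 8 whose unadjusted p from edgeR was under 0.05, as it was for 1732 of all 14815 genes tested. DESeq2 called 0 of the 8, beside 0.922% of all genes. Cdh5 had the largest fitted change of the set. It was at 550, 736, 548 and 581 CPM in library order, or 514, 708, 576 and 615 on the TMM scale of the ratios and tests. The library labelled young EC-K4KO was the highest on both scales. Its log2 ratio over young WT Cre was 0.46 (interval 0.43 to 0.49), with 0.50 in capillary-like, 0.45 in arterial-like and 0.43 in venous-like cells, while the old pair gave 0.10 (0.05 to 0.14). The fitted change over both ages was 0.28 ± 0.10 (edgeR, adjusted p = 0.340).

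For the others the genotype ratios were small. Cldn5 was at -0.04 for the young and -0.09 for the old libraries, Ocln at 0.04 and 0.09, Esam at 0.07 and 0.12, F11r at -0.07 and -0.10, and Lsr at 0.05 and 0.04. Jam2 had 0.11 and 0.22 (fitted 0.16 ± 0.08, adjusted p = 0.484). The median of the 8 genes was 0.06 in the young and 0.07 in the old pair, and no gene was past a log2 of 0.5 in either direction (of all genes, 2.2% were higher and 1.39% lower in the young pair and 2.27% and 1.68% in the old pair).

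Endothelial-like cells were divided by marker scores into capillary-like (1382, 1439, 607 and 510 cells), arterial-like (381, 428, 369 and 311) and venous-like cells (310, 477, 320 and 286), and 25.4% to 42.1% stayed unassigned. Cldn5, Ocln, Esam, Jam2 and Tjp1 were lower in arterial-like than in capillary-like cells, while F11r and Cdh5 were higher. Tested over 12 sums with library as a block, 7 of the 8 genes passed, 5 lower and 2 higher, beside 32.2% of the 12429 genes tested (14.7% lower and 17.4% higher). Each of the 7 had the same direction in all 4 libraries.

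Cldn5 had 6411, 6500, 5724 and 5556 TMM-scaled CPM in capillary-like and 5641, 5133, 3825 and 3870 in arterial-like cells, in library order. Within every library the arterial-like level was the lower one, and the gap was wider in the old libraries. The fitted log2 difference was -0.41 ± 0.06 (edgeR, adjusted p = 0.000103). Capillary-like cells had to reach a score limit set over all libraries together, and fewer cells of the old libraries reached it. The part of this limit in the wider gap was not tested. Esam had 730, 758, 724 and 747 TMM-scaled CPM in capillary-like and 546, 621, 541 and 630 in arterial-like cells, with no overlap of the groups (-0.34 ± 0.05, adjusted p = 6.58e-05). Tjp1 had 430, 452, 405 and 382 in capillary-like and 396, 384, 288 and 279 in arterial-like cells (-0.31 ± 0.06, adjusted p = 0.000775). Here the young arterial-like levels overlapped the old capillary-like ones, and the difference was within libraries.

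Jam2 was lower in arterial-like cells by a log2 difference of -0.25 ± 0.05 (adjusted p = 0.00143), with 239, 260, 225 and 267 TMM-scaled CPM there and 303, 320, 257 and 297 in capillary-like cells. Ocln was lower by -0.20 ± 0.05 (adjusted p = 0.00853). This was the smallest called difference, and without the old WT Cre library it no longer passed (-0.17, adjusted p = 0.0753), which left 6 of the 8 genes called. F11r went the other way, with 227, 202, 224 and 184 TMM-scaled CPM in arterial-like against 155, 155, 131 and 125 in capillary-like cells (0.55 ± 0.07, adjusted p = 7.99e-06). The lowest arterial-like value of F11r lay above its highest capillary-like value. Cdh5 had 597, 818, 679 and 766 in arterial-like and 485, 685, 528 and 582 in capillary-like cells (0.33 ± 0.05, adjusted p = 0.000143). Lsr did not pass (0.11 ± 0.05, adjusted p = 0.154), with ratios from -0.02 to 0.22 over the libraries.

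Arterial-like cells were deeper than capillary-like ones, with medians of 6063 to 13139 UMIs against 3562 to 8652. When segments were assigned after each cell had been thinned to 2000 UMIs, 7 of the 8 genes still passed, beside 31.5% of all genes. Only the assignment used thinned cells and the sums kept all their UMIs, so the part of depth in the segment differences was not tested. Smooth muscle cells lie next to arterial endothelium, and their 5 markers summed to 13.5 to 80.7 CPM in arterial-like and to 14.6 to 82.3 CPM in capillary-like cells. The immediate early and dissociation list was higher in arterial-like cells of the young libraries (10887 against 8470 CPM and 14033 against 11093 CPM) and nearly level in the old ones (14958 against 14476 CPM and 14267 against 14770 CPM), and its part was not tested. Segments were cut from scores, so they are ranges. Of the arterial-like cells 41 to 73 per library lay within 0.25 SD above the limit of 1 SD, and 48 to 80 further cells lay as close below it.

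**Figure D2:**
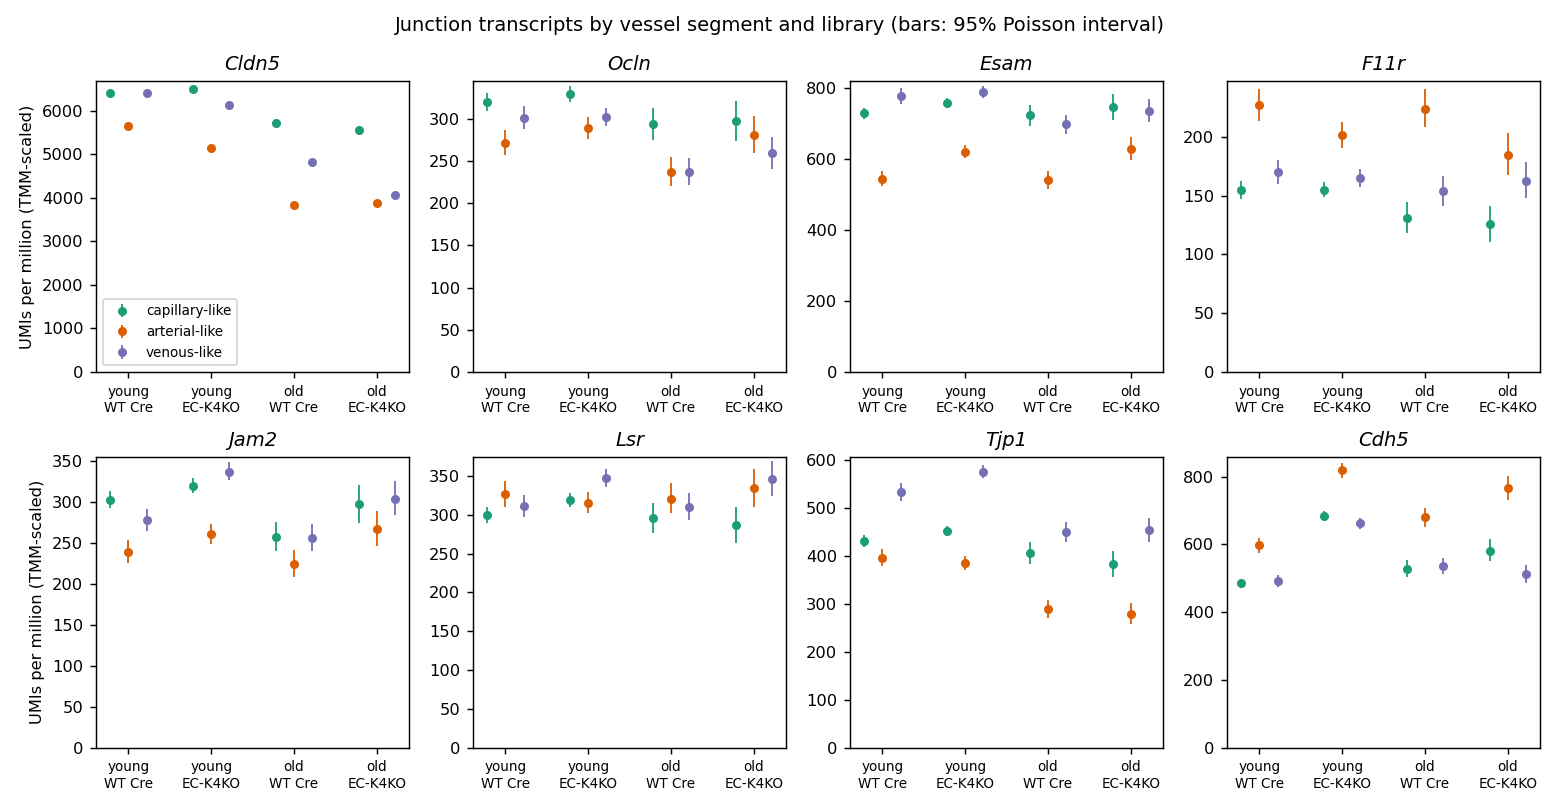
TMM-scaled CPM of the 8 detected junction genes in capillary-like, arterial-like and venous-like cells of the 4 libraries. Points are sums over the cells of a segment in 1 library, bars are 95% Poisson intervals and each axis starts at 0. The arterial-like points are the lowest of their library for Cldn5, Esam, Jam2 and Tjp1 and the highest for F11r and Cdh5.

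In venous-like cells Tjp1 rose and Cldn5 and Ocln fell against capillary-like cells. These 3 of 8 genes compare with 23.4% of all genes (12.4% higher, and 1366 of 12429 genes lower). Tjp1 had 532, 575, 449 and 453 TMM-scaled CPM in venous-like cells, above the capillary-like value of each library (0.27 ± 0.06, edgeR, adjusted p = 0.0037). It was thus below capillary-like cells in arterial-like and above them in venous-like cells. Cldn5 had 6403, 6137, 4812 and 4060, a fitted difference of -0.20 ± 0.06 (adjusted p = 0.033) that was close to 0 in young WT Cre (-0.00, interval -0.02 to 0.02) and -0.45 in old EC-K4KO. Ocln had 301, 302, 237 and 259 (-0.17 ± 0.05, adjusted p = 0.0282).

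Esam (0.02), Jam2 (-0.01), Cdh5 (-0.04), Lsr (0.13) and F11r (0.19, adjusted p = 0.0539) did not pass between venous-like and capillary-like cells. F11r passed in 3 of 14 fits (lowest adjusted p = 0.0329). Tjp1 passed in 13 of the 14, and without young EC-K4KO it had 0.23 (adjusted p = 0.0564). Without that library Cldn5 (-0.24, adjusted p = 0.0501) and Ocln (-0.20, adjusted p = 0.0742) did not pass either, so that none was called. Without old EC-K4KO (Cldn5 -0.11, Ocln -0.16) and without old WT Cre (Cldn5 -0.18, Ocln -0.13) Tjp1 alone passed. When the deepest 5% of endothelial-like cells were left out, the Cldn5 difference was -0.04 (adjusted p = 0.688) and that of Ocln -0.10 (adjusted p = 0.288). Venous-like cells were the deepest, with medians of 7397 to 18034 UMIs.

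**Figure D3:**
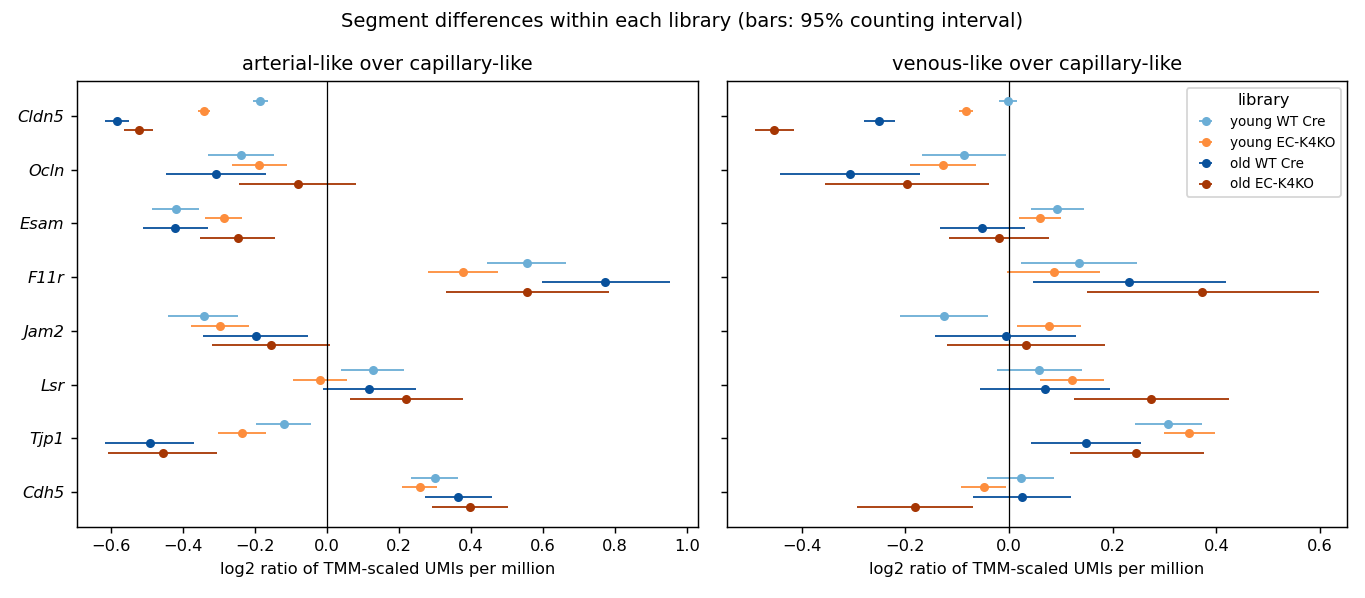
Log2 ratio of TMM-scaled CPM of arterial-like (left) and venous-like cells (right) over capillary-like cells of the same library, for the 8 detected junction genes. Each colour is a library and bars are 95% counting intervals. On the left all 4 points of F11r and Cdh5 lie above 0 and all 4 of Cldn5, Ocln, Esam, Jam2 and Tjp1 below it. On the right all 4 of Tjp1, F11r and Lsr lie above 0. Those of Ocln and Cldn5 lie below it, with Cldn5 in young WT Cre close to 0.

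Whether the age difference varied between segments was tested in the same 12 sums. None of the 8 genes passed in edgeR, against 0.497% of all genes (0.256% for the arterial and 0.192% for the venous term alone). Cldn5 and Tjp1, 2 of the 8, had an unadjusted p under 0.05 in edgeR, as had 1203 of all 12480 genes tested. For Cldn5 the old over young log2 ratio was -0.16 in capillary-like, -0.56 in arterial-like and -0.41 in venous-like cells of WT Cre, and -0.23, -0.41 and -0.60 in EC-K4KO. The capillary-like ratio was the one nearest 0 in both genotypes, but the segment by age terms gave an adjusted p of 0.214. The part of the capillary score limit, set over all libraries together, in that ratio was not tested. For Tjp1 the ratios were -0.09, -0.46 and -0.24 in WT Cre and -0.24, -0.46 and -0.34 in EC-K4KO (adjusted p = 0.395). Ocln had -0.12, -0.19 and -0.34 in WT Cre and -0.15, -0.04 and -0.22 in EC-K4KO. In capillary-like cells alone the fitted age difference was -0.20 for Cldn5 (adjusted p = 0.156), -0.17 for Tjp1 (adjusted p = 0.313) and -0.14 for Ocln (adjusted p = 0.383).

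Cldn5, Ocln and Tjp1 were the genes with the lowest fitted values with age and were also all lower in arterial-like cells, so the bases before their starts are shown. They are the 250 bases upstream of a RefSeq start (GRCm38.p6), 5′ to 3′ on the strand of the gene, with every CACCC or its reverse complement GGGTG in capitals. This is the core of the CACCC motif that Krüppel-like factors, the family of Klf4, can bind.
Cldn5, chr16:18776597-18776846, plus strand: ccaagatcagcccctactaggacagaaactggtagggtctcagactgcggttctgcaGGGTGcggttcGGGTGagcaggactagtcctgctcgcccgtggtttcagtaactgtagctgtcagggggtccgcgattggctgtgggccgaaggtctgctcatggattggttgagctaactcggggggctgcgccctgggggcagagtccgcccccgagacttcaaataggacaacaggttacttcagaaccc
Ocln, chr13:100552719-100552968, minus strand: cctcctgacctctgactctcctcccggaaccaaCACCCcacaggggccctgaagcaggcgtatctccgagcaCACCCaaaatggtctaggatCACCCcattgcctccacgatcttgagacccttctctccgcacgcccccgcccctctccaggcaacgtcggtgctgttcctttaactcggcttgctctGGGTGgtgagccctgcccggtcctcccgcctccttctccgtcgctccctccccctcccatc
Tjp1, chr7:65371245-65371494, minus strand: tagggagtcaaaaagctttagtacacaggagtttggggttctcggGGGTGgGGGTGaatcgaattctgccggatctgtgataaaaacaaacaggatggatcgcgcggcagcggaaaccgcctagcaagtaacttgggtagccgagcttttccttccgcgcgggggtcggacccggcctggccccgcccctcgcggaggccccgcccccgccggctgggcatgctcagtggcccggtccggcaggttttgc

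The Cldn5 window lies directly before the annotated gene and holds 2 matches. The Ocln window, before the upstream of its 2 RefSeq starts, holds 4, and the window before the other start holds none. The Tjp1 window holds 2 and lies inside the annotated gene, before the start of a shorter transcript, outside all exons. Of the other genes in the table, Lsr and Cgn had 1 match each and F11r none. Of all 32851 windows of 250 bases, 52.0% held a match, 21.1% held 2 or more and 2.14% held 4 or more. A match of 5 letters is a description of the sequence and does not show binding.

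Outside endothelium the genes parted into those tied to endothelial-like cells and those present in other brain cells. A floor for RNA carried over from endothelial cells was taken from the endothelial genes Tie1, Kdr, Cyyr1, Emcn and Rasip1, as the percent of the endothelial level found in another class. Emcn was set aside after its values were seen, since it reached 37.0% in pericyte-like and 71.6% in fibroblast-like cells. Without it the highest percent was 3.23% in pericyte-like, 1.91% in microglia-like, 1.60% in smooth muscle-like, 2.40% in fibroblast-like and 6.75% in oligodendrocyte-like cells. With Emcn kept, F11r in pericyte-like cells and Tjp1, Jam2 and Cdh5 in fibroblast-like cells were above the floor in no library. Classes are given for libraries with at least 30 cells.

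F11r was above endothelium in microglia-like cells, the resident macrophages of the brain. It had 461, 455, 276 and 250 CPM there, from 335, 581, 1280 and 739 cells, which was 171% to 260% of the endothelial level of the same library. Thinned to 1000 UMIs per cell, 38.2%, 37.2%, 24.6% and 23.3% of microglia-like cells held a F11r UMI, against 17.4%, 16.2%, 14.2% and 14.1% of endothelial-like cells. Before thinning the shares were 90.1%, 90.5%, 74.1% and 70.2% against 68.1%, 73.4%, 54.2% and 46.3%. For Cldn5, which microglia are not known to express, the thinned share in microglia-like cells was 4.18%, 5.85%, 0.938% and 0.406%. Median depths of microglia-like cells were 4940 to 5668 UMIs. Both old libraries were below both young ones for F11r in microglia-like cells, with 1 library per group. The share of all genes that part by age in these cells was not counted. F11r also stood at 58.3 and 56.5 CPM in choroid plexus epithelial-like cells of old WT Cre and old EC-K4KO, 37.0% and 38.7% of endothelium, at 17.1% to 23.0% of endothelium in pericyte-like and at 10.9% to 27.6% in smooth muscle-like cells.

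Esam was shared with the mural cells that wrap vessels. It had 430, 451, 386 and 399 CPM in pericyte-like cells, 57.2% to 61.9% of endothelium, and 205, 175, 132 and 119 CPM in smooth muscle-like cells. Elsewhere it stayed at 14.2 CPM or below. Tjp1 was present in many classes. It reached 289, 239, 200 and 253 CPM in pericyte-like cells, 114, 114, 81.9 and 84.6 CPM in oligodendrocyte-like cells and 93.0, 122, 83.7 and 105 CPM in astrocyte-like cells. Microglia-like cells had 64.6 to 113 CPM, smooth muscle-like cells 57.3 to 66.6 CPM and fibroblast-like cells 87.2 to 113 CPM of Tjp1. All of these were above the floor without Emcn in every library. In single libraries Tjp1 was also at 83.3 CPM in oligodendrocyte precursor-like, 46.0 CPM in ependymal-like and 38.8 CPM in neuron-like cells.

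Jam2 was found in astrocyte-like cells at 133, 99.7, 63.4 and 75.3 CPM (27.3% to 43.3% of endothelium) and in microglia-like cells at 42.1 to 73.6 CPM. In old WT Cre it was also at 88.9 CPM in 37 oligodendrocyte precursor-like cells, from 16 UMIs, and at 58.7 CPM in 55 ependymal-like cells, from 37 UMIs. Fibroblast-like cells had 21.2 to 61.2 CPM of Jam2. Ocln was at 45.3 and 42.2 CPM in choroid plexus epithelial-like cells of old WT Cre and old EC-K4KO and at 87.2 CPM in 55 ependymal-like cells of old WT Cre. The choroid plexus epithelium forms a barrier of its own between blood and cerebrospinal fluid. Lsr was at 24.6 and 20.8 CPM in the same choroid plexus epithelial-like cells.

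Cgn, near 0 in endothelium, was at 14.8 CPM (92 UMIs) and 10.1 CPM (17 UMIs) in choroid plexus epithelial-like cells of old WT Cre and old EC-K4KO. No class apart from these and endothelial-like cells held more than 5 UMIs in a library. Cldn5 was at most 0.942% of endothelium in any other class, at 33.2 to 59.6 CPM in the young libraries and 0 to 38.9 CPM in the old ones. Cdh5 was at 21.2 CPM or below outside endothelium, apart from fibroblast-like cells with 36.5, 94.8 and 88.5 CPM in the 3 libraries that had 31 to 39 of them.

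**Figure D4:**
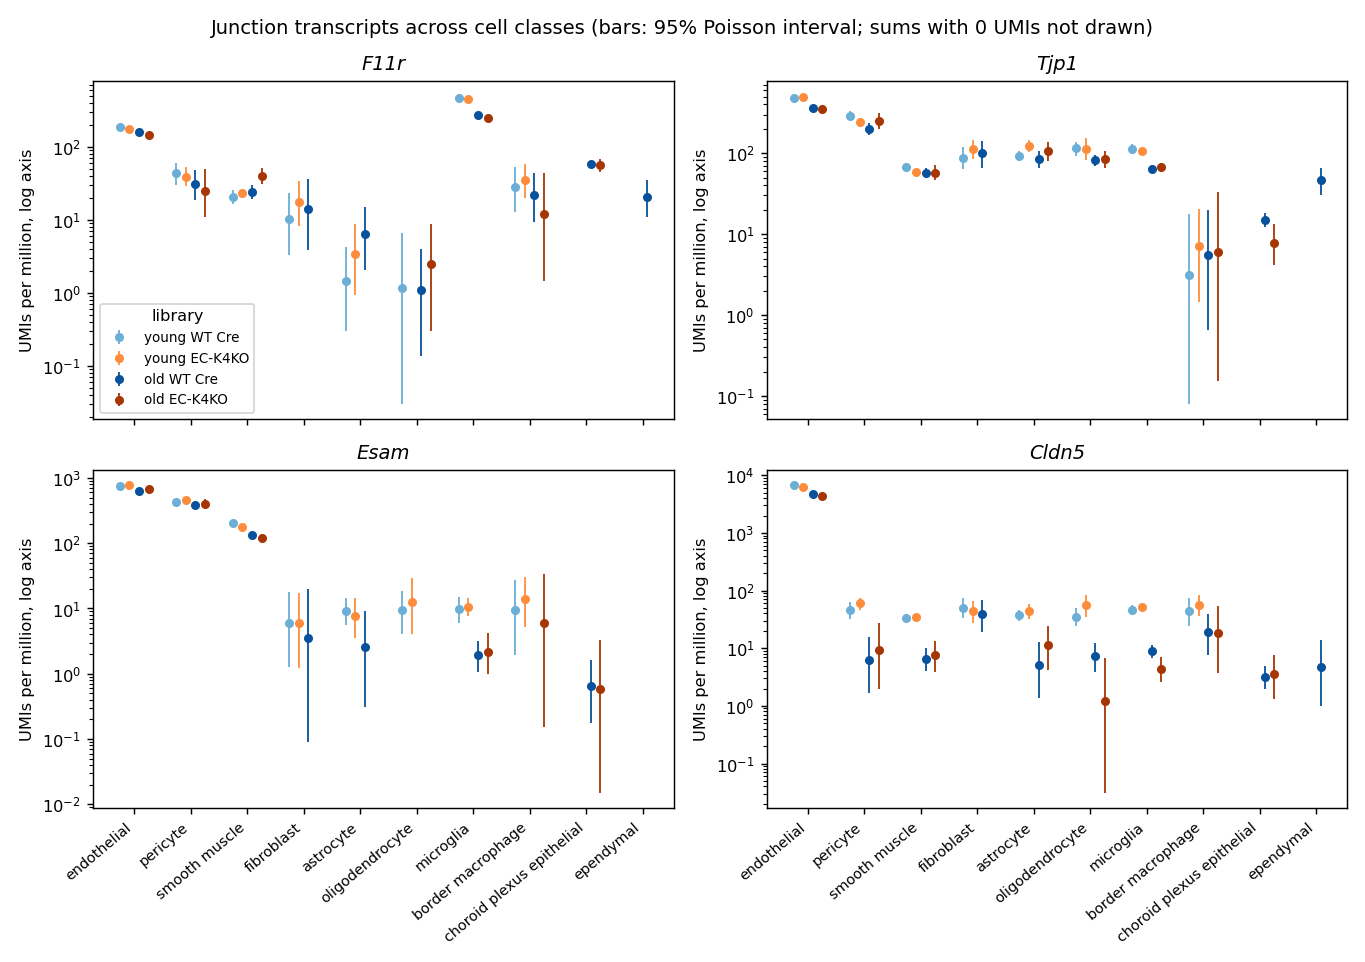
Levels in CPM, on a log axis, of F11r, Tjp1, Esam and Cldn5 in 10 of the cell classes in the 4 libraries. Points are sums over the cells of a class with at least 30 cells, bars are 95% Poisson intervals and sums with 0 UMIs are not drawn. F11r is highest in microglia-like cells (250 to 461 CPM), Esam in endothelial-like, then pericyte-like and smooth muscle-like cells, and Cldn5 stands far above all other classes in endothelial-like cells.

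The wider junction machinery was read from lists of 33 further tight and adherens junction genes and 4 gap junction genes. With age, 27 of the 33 could be tested, and 1 rose and 5 fell, beside 11.1% and 6.88% of all genes. The scaffold and polarity list held 4 of the 5 that fell, among them Magi1 (log2 fold change -0.61), Pard6g (-0.67) and Amotl2 (-0.27). Cdh2, the N-cadherin that endothelial and mural cells share, from the adherens list, fell as well, with 23.6, 24.4, 12.5 and 8.90 CPM in library order (-1.01, adjusted p = 0.00413). The pericyte and smooth muscle marker sums in these cells were lower in the old libraries too, as given above, and their part in the Cdh2 difference was not tested. Vcl, which links cadherins and integrins to actin, rose (0.39, adjusted p = 0.0107). The median over the 27 genes was -0.11, and over the 8 genes of the set -0.15. With genotype label, Ildr2, an angulin like Lsr, was the 1 of 27 genes that passed. It had 53.5 and 45.4 CPM in young and old WT Cre against 78.9 and 81.5 CPM in young and old EC-K4KO (0.72, adjusted p = 0.00797), higher in both pairs. Ildr2 did not pass in a model of genotype alone (0.73), in which no gene was called, or in capillary-like cells alone (0.70, adjusted p = 0.0662).

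Between arterial-like and capillary-like cells 4 of 26 genes of these lists were higher and 7 lower, beside 17.4% and 14.7% of all genes. The polarity gene Pard6g (-3.05) was lower, as was Cdh2 (-1.39), while Vcl (0.53), Amotl1 (0.35) and Nectin1 (2.28) were higher. Pard6g and Nectin1 had few counts, at 4.66 to 8.64 CPM and 1.59 to 2.87 CPM in endothelial-like cells. Venous-like cells had 8 of 26 higher and 8 lower, beside 12.4% of all genes higher and 1366 of 12429 lower. Pard6g (1.23) and Cdh2 (0.50) were among the higher ones, so that both, like Tjp1, were below capillary-like cells in arterial-like and above them in venous-like cells. Ildr2 was also higher there (0.87), and Jam3 (-1.02), Jup (-0.65) and Ctnnb1 (-0.32) were lower. The beta-catenin gene Ctnnb1 and plakoglobin gene Jup encode the proteins that bind the tail of VE-cadherin. The medians over the 26 genes were -0.08 in arterial-like and -0.02 in venous-like cells, and those of the 8 genes of the set -0.23 and 0.01.

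Gap junction genes build channels between cells in place of seals. All 4 passed between arterial-like and capillary-like cells, beside 32.2% of all genes (17.4% higher and 14.7% lower). Gja4 (5.26) and Gja5 (7.55), connexin genes typical of arteries, and Gja1 (0.49) were higher in arterial-like cells and Gjc1 was lower (-1.08), as fitted log2 differences. Gja5 had few counts, at 2.30 to 4.68 CPM in endothelial-like cells. In venous-like cells Gja1 (-1.41) and Gja4 (-1.65) were lower. Gja4 was also the 1 gap junction gene that rose with age, with 26.0, 23.5, 32.9 and 59.9 CPM (1.01, adjusted p = 0.0108), beside an arterial-like share of cells of at most 13.7% in the young and at least 16.3% in the old libraries.

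**Figure D5:**
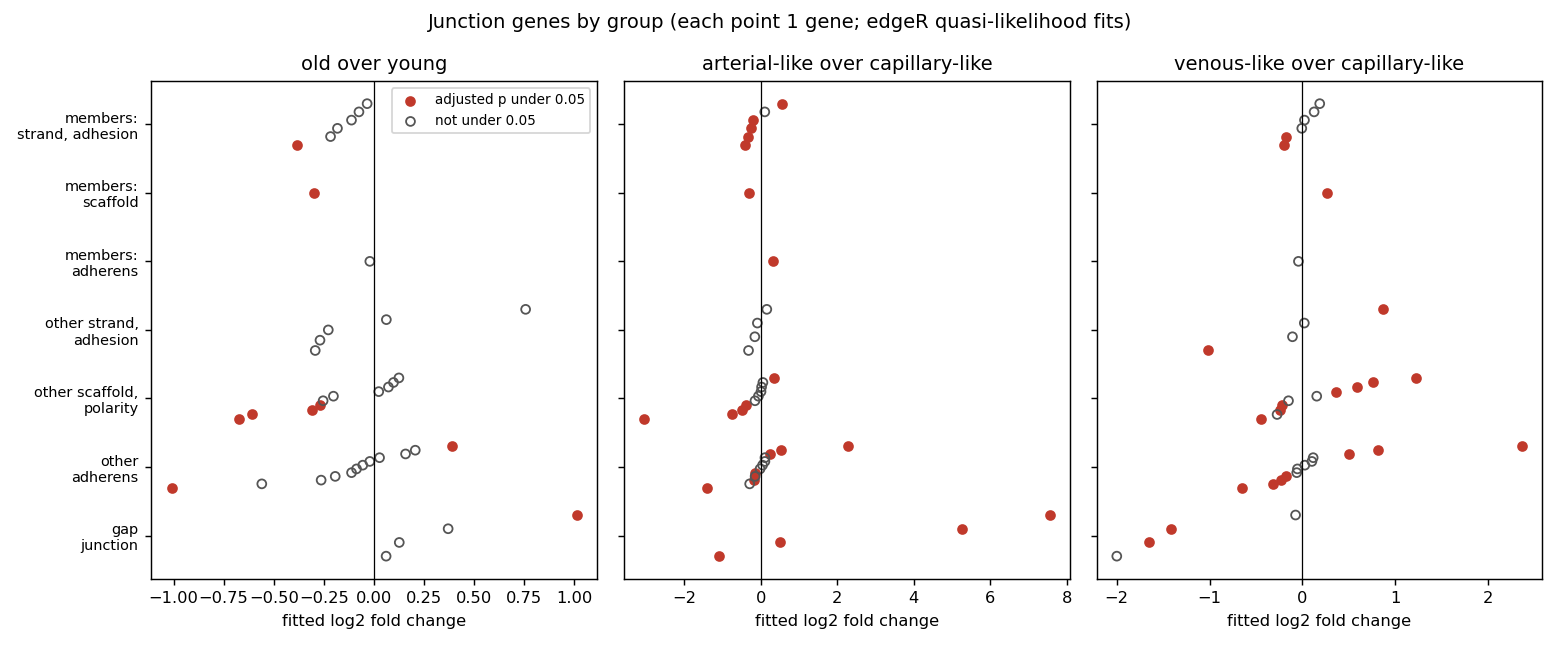
Fitted log2 fold change of each tested junction gene by group, for old over young (left), arterial-like over capillary-like (middle) and venous-like over capillary-like cells (right), from edgeR quasi-likelihood fits. Each point is 1 gene, and filled points have an adjusted p under 0.05. In the left panel 2 of the 8 points of the set are filled, and in the middle panel 7 of 8.

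Across the 12 sums of 3 segments in 4 libraries, the genes of the set did not all follow Cldn5. Pearson's r of log2 TMM-scaled CPM with Cldn5 was 0.77 for Ocln, 0.70 for Tjp1, 0.55 for Esam and 0.48 for Jam2, and it was -0.32 for Cdh5, -0.38 for Lsr and -0.39 for F11r. Ocln ranked 109 and Tjp1 210 of the 3429 genes that averaged 50 CPM or more. The 5 genes most like Cldn5, members and markers left out, were Dnm2 (0.97), Fbxo3 (0.95), Pllp (0.95), Impdh1 (0.94) and Hmgb1 (0.94). Dnm2 encodes the dynamin that cuts off endocytic vesicles and Impdh1 an enzyme of guanine nucleotide synthesis. The 12 sums share 4 libraries and their depth, so these values describe likeness only.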

How the data were processed

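Per the file headers, the authors made the deposited counts with Cell Ranger 6.0.2 as raw UMI counts per gene and barcode, limited to barcodes called as cells (lowest 500 UMIs). The submitters' processing notes name GRCm38, mm10 and Seurat. Of 5324 to 8358 barcodes per library, those with at least 1000 UMIs, 500 genes and at most 10% mitochondrial UMIs were kept (4293 to 6940). A class needed 50% and at least 3 of its markers with 1 UMI, and barcodes with markers of 2 lineages (274 to 933 per library) were left out, which also removes doublets of unlike cells. Segments came from z-scaled marker scores: arterial-like or venous-like at 1 SD and 1 SD above the opposite score, capillary-like at 0 or more with the other 2 scores under 0.5. The names are rebuilt and may differ from the annotation of the study. The capillary score uses transport genes, whose cells fell in share with age.

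UMIs were summed per library and class or segment. Tests used edgeR 4.0.16 (quasi-likelihood, TMM, Benjamini-Hochberg over all genes tested, adjusted p under 0.05), with age and genotype as terms over 4 sums and library and segment over 12 sums. The steps were tested on simulated data. DESeq2 1.42.0 served as an alternative. Whether mice were separate or pooled is not given, so p-values measure only the spread between these sums. Ratios of 2 libraries carry 0.5 added UMIs, exact conditional binomial intervals and no test. Intervals are exact Poisson or binomial ones at 95%. Named genes were the 9 members, the other junction genes on the lists, and the 5 genes most like Cldn5. Members and lists were chosen with earlier results of these data known. Of 55487 gene IDs, 55094 matched GENCODE M21. Promoter bases are from a RefSeq table (GRCm38.p6), in which 6 of the 9 genes were matched. The values of 1 gene of the wider junction lists are not reported here.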

Additional observations from a re-analysis of the deposited data

Results flagged for a closer look

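For 2 genes the library ratios pointed in opposite directions under the same contrast, with both counting intervals away from 0. Cdh5 had an old over young log2 ratio of 0.16 in WT Cre and -0.20 in EC-K4KO on the TMM scale. On plain CPM the WT Cre libraries were level, at 550 CPM in young and 548 CPM in old. Tjp1 had an EC-K4KO over WT Cre log2 ratio of 0.0893 among the young and -0.0680 among the old libraries. With 1 library per group neither difference between the pairs was tested.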

How the results depend on the processing

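The arterial-like against capillary-like count (7 of 8) was 6 or 7 under every alternative run, with 6 to 7 over the fits that leave out 1 library. The count with age (2) was 0 with age alone, 0 to 0 when 1 library was left out of that model (the fit with genotype has no residual degree of freedom then), 0 in capillary-like cells, 1 without the deepest 5% of cells, 1 with DESeq2 (Cldn5), 3 with no filter on low counts (Ocln added) and 6 on library totals (Ocln among them). Over its 14 fits the adjusted p of Cldn5 with age ran from 0.000978 to 0.316 and that of Tjp1 from 0.00237 to 0.341, and each passed in 7. The venous-like count (3) was 0 to 3 when 1 library was left out. No gene of the set passed with genotype under any alternative. At 0.25 in place of 0.5 as the log2 limit, 1 gene was lower with age in WT Cre (17.5% of all genes), 2 in EC-K4KO (19.2%) and 1 higher in young EC-K4KO over young WT Cre (8.48%). At the limit of 0.5, 1 gene in WT Cre (11.1%) and 2 in EC-K4KO (10.2%) were lower with age on library totals. The median log2 ratio with age on library totals was -0.33 in WT Cre and -0.30 in EC-K4KO. Other causes of these differences were not tested. Of all genes, 2667 were called with age (1648 higher, 1019 lower), but 4769 on library totals (1259 higher, 3510 lower), 801 in capillary-like cells, 1031 with DESeq2 and 955 with age alone, which became 213 to 387 when 1 library was left out of that model. With genotype the 217 became 0 (genotype alone), 47 (capillary-like cells), 118 (DESeq2), 143 (5% mitochondrial UMIs), 329 (library totals), 339 (deepest 5% out), 470 (markers at 2 UMIs) and 788 (no filter). Between venous-like and capillary-like cells the 2910 became 1914 without the deepest 5%. No pairing between the age or genotype groups was possible because they share only 1 replicate number. The segment fits had library as a block. Cgn was too shallow to test in endothelium.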
